A study of Mus musculus with 28 samples.

Results

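Described here are 38 mouse genes of fatty acid oxidation, ketone body formation and PPARα control, out of 22187 genes in a table of liver RNA sequencing. The members were set as a list of symbols by function, with no measured value in the rule, though earlier results of these data were known when the list was chosen. They were split by where their proteins work into 19 mitochondrial, 9 peroxisomal and 5 microsomal members, and 5 others (the regulators Ppara and Ppargc1a, the cytosolic thioesterase Acot1, and the PPARα targets Vnn1 and Fgf21).

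The 28 libraries came from C57BL/6 mice in which Il17ra, the receptor chain for the cytokine interleukin 17A, was floxed in every group. The mice called dHEP here also carried Alb-Cre, a recombinase driven by the albumin promoter that deletes the floxed gene in hepatocytes and leaves it in other liver cells, and the FF mice carried the floxed gene alone. All had received the liver carcinogen DEN (diethylnitrosamine) at 25 mg/kg at 2 weeks of age, and then an alcohol diet or chow for 18 weeks. For the alcohol diet the labels speak in places of liquid ethanol feeding and in others of high-fat feeding together with alcohol, and they give no sex. Tumors and non-tumor liver were sequenced in 14 libraries each, which makes 8 groups, with n = 4 in each alcohol group and n = 3 in each chow group.

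Fatty acids are broken down in the liver in several places. Long chains enter the mitochondrion through the carnitine shuttle (Cpt1a, Slc25a20, Cpt2), are shortened by cycles of dehydrogenation, hydration, oxidation and thiolysis, and pass their electrons on through the electron transfer flavoprotein, and the acetyl-CoA made can leave the hepatocyte as ketone bodies. Peroxisomes shorten very long and branched chains by an analogous set of enzymes, and microsomal Cyp4a cytochromes P450 hydroxylate the far end of the chain. PPARα is a nuclear receptor activated by fatty acids that raises genes of all these routes during fasting, and it binds DNA with RXR at a direct repeat with a single base between the repeats, called DR1.

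The promoters of the members were searched for DR1 (AGGTCANAGGTCA, where N is any base) on both strands with at most 2 mismatches, because many of the members moved together between tissues. Of the 38 members, 30 had an entry in the RefSeq promoter table (build GRCm38.p6), with 32 windows of 300 bases, from 250 before to 50 after the gene's start. Cyp4a10, Cyp4a12a, Cyp4a14, Cyp4a31, Hsd17b4, Acaa2, Decr1 and Vnn1 had no entry and were not searched. A match stood in 3 of the 32 windows (9.38%) and in 1268 of all 32851 windows of the table (3.86%), and no member window held DR1 with fewer than 2 mismatches. The 3 windows follow, 5′ to 3′ on the gene's strand, with the DR1 match in capitals. That of Slc25a20, the mitochondrial carnitine carrier (chr9:108661886-108662185, plus strand), matched on the gene's strand, and those of Etfa, the alpha chain of the electron transfer flavoprotein (chr9:55512194-55512493, minus strand), and Acot4, a peroxisomal thioesterase (chr12:84038129-84038428, plus strand), matched on the opposite strand.
Slc25a20: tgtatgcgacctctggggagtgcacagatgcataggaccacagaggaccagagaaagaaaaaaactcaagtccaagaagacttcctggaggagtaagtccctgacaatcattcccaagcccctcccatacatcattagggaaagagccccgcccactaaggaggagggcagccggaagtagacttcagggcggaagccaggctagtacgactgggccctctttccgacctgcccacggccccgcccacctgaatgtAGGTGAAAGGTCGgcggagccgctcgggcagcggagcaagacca
Etfa: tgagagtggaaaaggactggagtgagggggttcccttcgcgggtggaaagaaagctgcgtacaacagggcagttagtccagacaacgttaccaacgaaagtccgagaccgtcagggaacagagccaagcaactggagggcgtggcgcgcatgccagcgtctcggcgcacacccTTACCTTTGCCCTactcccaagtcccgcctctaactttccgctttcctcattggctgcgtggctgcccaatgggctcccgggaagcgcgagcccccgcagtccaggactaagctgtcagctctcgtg
Acot4: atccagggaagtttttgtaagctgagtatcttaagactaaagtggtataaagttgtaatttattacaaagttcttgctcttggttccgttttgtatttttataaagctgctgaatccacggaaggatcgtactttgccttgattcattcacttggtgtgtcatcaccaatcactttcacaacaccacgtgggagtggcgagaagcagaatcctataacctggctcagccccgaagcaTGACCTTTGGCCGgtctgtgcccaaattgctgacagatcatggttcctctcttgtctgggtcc

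The match began 7 bases after the start in Slc25a20, 77 bases before it in Etfa and 13 bases before it in Acot4. These are matches of letters in these windows and no measure of binding. Slc25a20 and Etfa were lower in tumors in 4 and 3 of the 4 tissue comparisons below, and Acot4 was called in none of them without the animal as a block.

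Values are CPM (read counts scaled to the same total in each library), not corrected for gene length, so levels are compared between libraries and not between genes. Estimated depth was 9.57 to 17.82 M reads per library. All 38 members passed the filter of 1 CPM in at least 3 fitted libraries. Differences are in log2(CPM + 1) ± SE from limma, levels are mean ± SD, and a gene is called at a Benjamini-Hochberg adjusted p under 0.05 over all genes tested. The labels do not say that the samples of a group came from separate mice. Their numbers were taken as animal numbers, and p-values measure the spread between these samples.

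All 13 hepatocyte markers were present in every group, with summed levels of 68954 to 115755 CPM in non-tumor liver and 107554 to 211475 CPM in tumors. A large part of these sums was Alb, at 2.43% to 6.41% of all CPM in non-tumor liver and 6.78% to 14.4% in tumors. Il17ra stood at 8.34 to 13.0 CPM in dHEP and 14.7 to 31.0 CPM in FF non-tumor liver, and at 8.38 to 29.4 CPM in dHEP and 20.8 to 33.9 CPM in FF tumors. Of other cells, 7 biliary markers summed to 23.2 to 163 CPM in non-tumor liver and 8.31 to 3230 CPM in tumors, and 11 stellate cell markers to 301 to 778 and 275 to 2103 CPM. The biliary gene Cldn7 was below 1 CPM in all non-tumor libraries, and the part of these cells in the tissue results was not tested. Members of the Cyp4a, Acot and Acaa1 families share sequence, so the authors' counting could move reads between them. Of the 50-base stretches of a member's transcripts, 48.9% of Cyp4a12a (with Cyp4a12b), 43.8% of Cyp4a32, 29.8% of Cyp4a10, 20.6% of Cyp4a31, 30.5% of Acaa1b, 27.7% of Acot2, 19.2% of Acot1 and 19.1% of Acot3 also occurred in other genes, against 0.235% of Cyp4a14. Outside the families it was 44.8% of Etfb and 19.7% of Hadhb.

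A pair of FF chow libraries stood apart from their groups. In non-tumor FF-158, 13 liver genes known to be higher in female mice summed to 3078 CPM (200 and 78.6 CPM in FF-157 and FF-159), and 11 known to be higher in males to 720 CPM (6224 and 8693 CPM). In tumor FF-168 the same sums were 7847 CPM (572 and 2488 CPM in FF-167 and FF-169) and 605 CPM (4135 and 3169 CPM). The tissue result in FF chow is therefore also given without both libraries, and other values are given without them where they moved by more than 1.5 times. FF-168 stood apart from its group but not from all tumors. Tumor dHEP-550 had a female sum of 5885 CPM and a male sum of 914 CPM, against 152 and 16413 CPM in its non-tumor liver. Tumor dHEP-165 had a female sum of 9268 CPM, with a male sum of 4375 CPM. In non-tumor liver the sum of 11 liver tumor markers was highest in FF-523 (749 CPM) and FF-581 (586 CPM) on alcohol, against 142 and 146 CPM in the rest of their group. For dHEP-155 on chow this sum was 138 CPM, against 46.7 and 58.9 CPM.

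**Figure D1:**
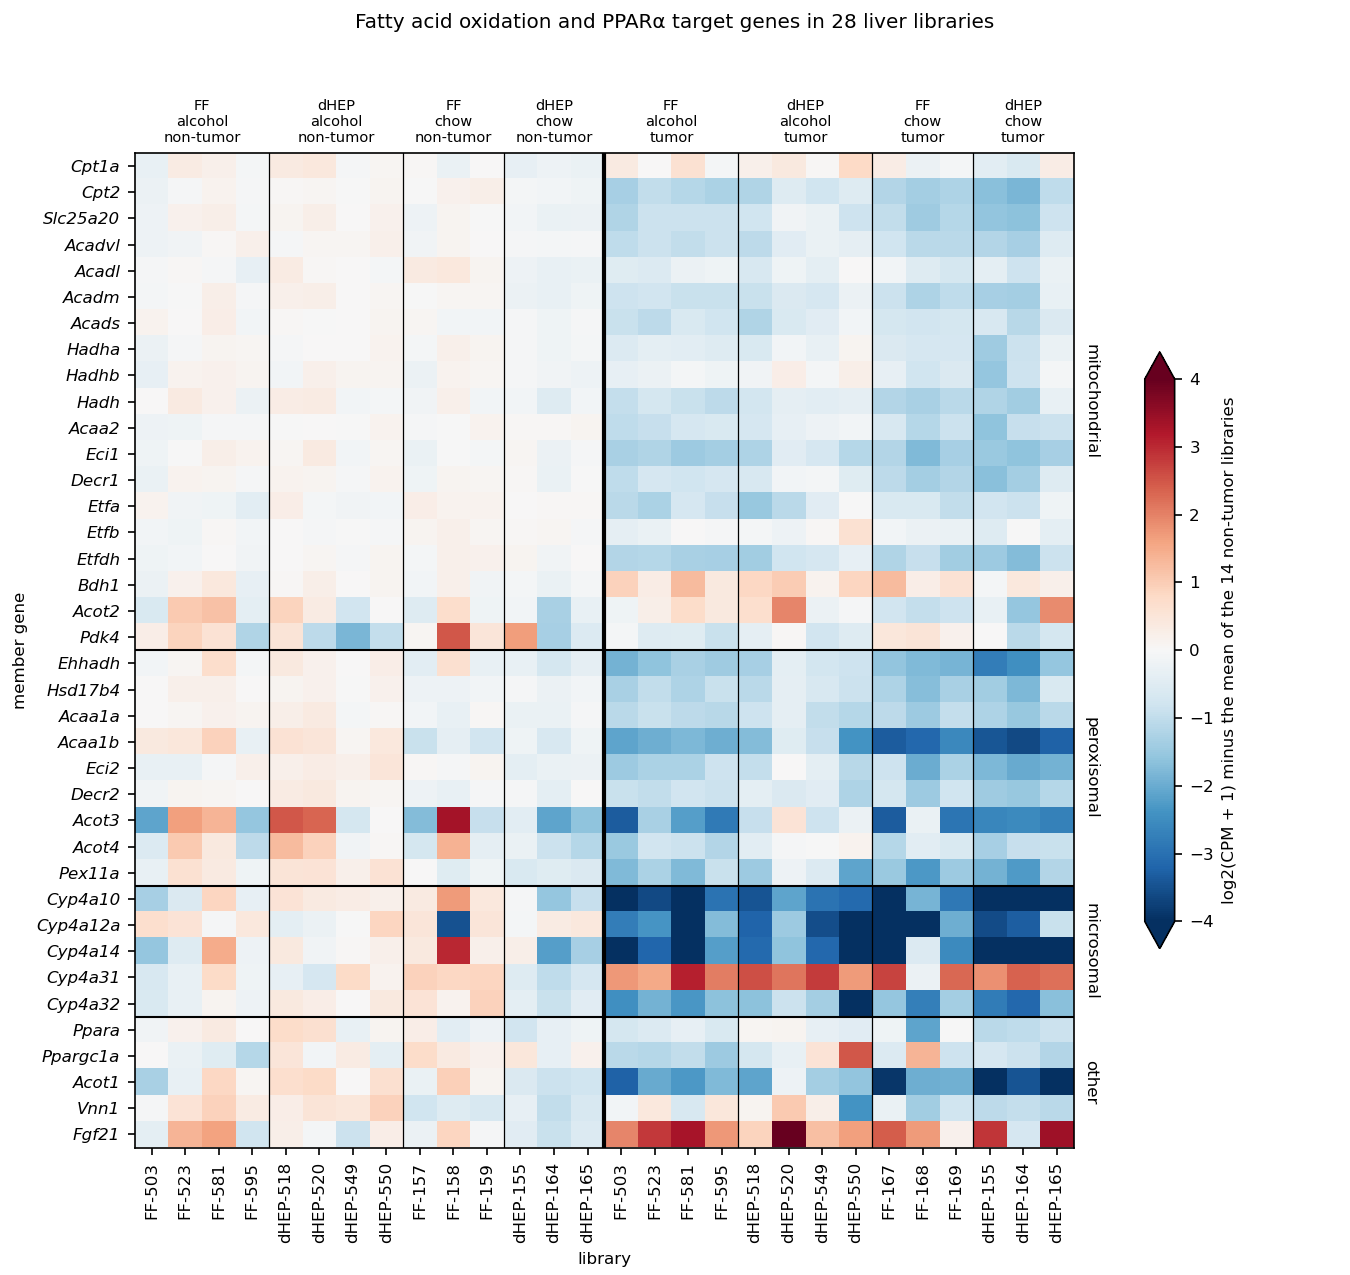
Heat map of the 38 members (rows, grouped by compartment) in the 28 libraries (columns, grouped by genotype, diet and tissue). Colour is log2(CPM + 1) minus the gene's mean over the 14 non-tumor libraries, with colours saturated beyond 4 either way; peroxisomal and most Cyp4a rows are blue (lower) in tumors of all groups, while Cyp4a31 and Fgf21 show red there.

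Between tumor and non-tumor liver, most members were lower in tumors whatever the genotype and diet. The fit held all 28 libraries without the animal as a block, and fits with it are given below. Called lower were 23 of 38 in FF alcohol (10.6% of all 13503 genes tested), 25 in FF chow (9.55%), 21 in dHEP alcohol (7.54%) and 23 in dHEP chow (10.7%). Called higher were 2, 1, 1 and 2 members in the same order, against 13.9%, 21.2%, 12.9% and 17.2% of all genes. Lower in all 4 comparisons were 19 members (4.62% of all genes), of which 8 were mitochondrial, 7 peroxisomal, 3 microsomal and 1 was Acot1. The median log2 difference of the mitochondrial members was -0.76 in FF alcohol, -0.90 in FF chow, -0.41 in dHEP alcohol and -0.72 in dHEP chow. The peroxisomal medians were -1.21, -1.40, -0.98 and -1.23, and the microsomal medians -3.79, -3.36, -3.18 and -2.82, against 0.05, 0.16, 0.09 and 0.14 over all genes. In bulk tissue, fewer cells of a type and less RNA per cell cannot be told apart.

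**Figure D2:**
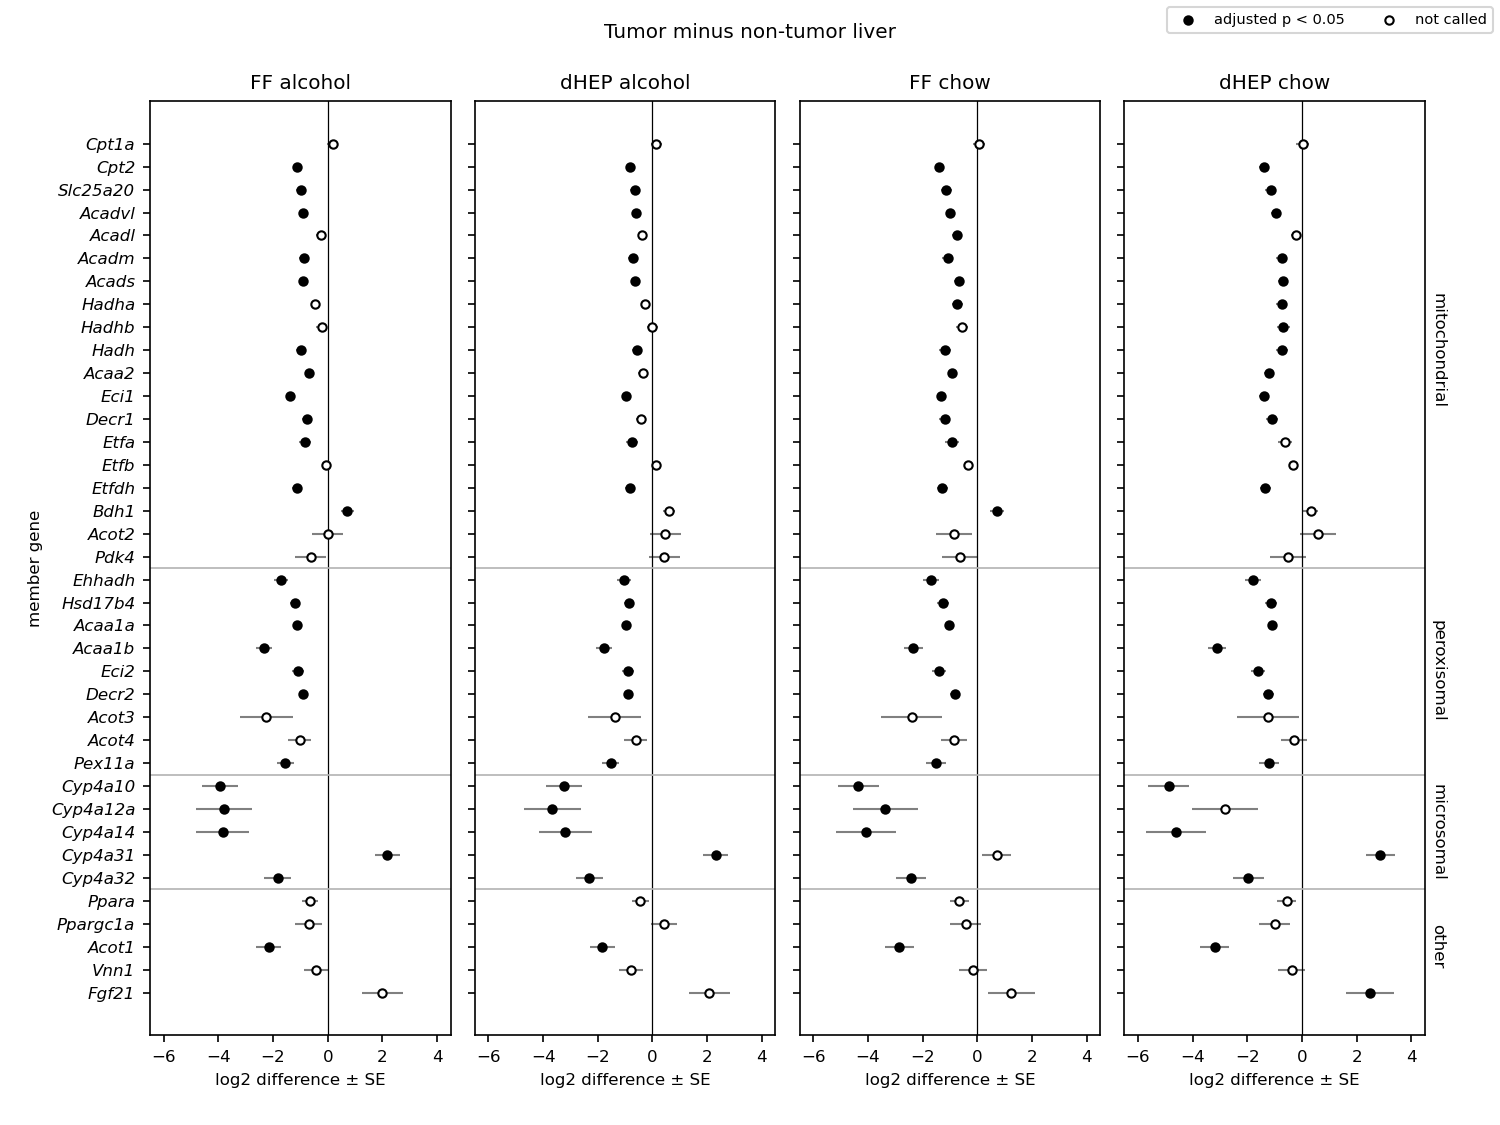
Tumor minus non-tumor log2 difference (x axis, ± SE) of each member (y axis, by compartment) in the 4 combinations of genotype and diet. Filled points were called at an adjusted p under 0.05; 23, 21, 25 and 23 of 38 members were called lower in FF alcohol, dHEP alcohol, FF chow and dHEP chow, as the panels are ordered.

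Within the carnitine shuttle, the entry gene and the inner membrane genes differed. Cpt2, which re-forms acyl-CoA on the matrix side, stood at 122, 140, 159.3 and 140 CPM in FF alcohol non-tumor liver and at 57.0, 73.1, 65.9 and 60.6 CPM in FF alcohol tumors. On chow the FF values were 145, 163.9 and 171 CPM in non-tumor liver and 63.9, 56.0 and 61.8 CPM in tumors. In dHEP mice Cpt2 was at 129 to 156 CPM in all 7 non-tumor libraries and at 40.3 to 102 CPM in the 7 tumors. No tumor of the 14 reached the lowest non-tumor library. Of the 38 members 8 had no overlap between the 14 tumors and 14 non-tumor libraries. The share of all genes without overlap was not counted, so neither this count nor the single cases named below are read as particular to the members. Cpt2 was lower by a log2 difference of -1.12 ± 0.15 in FF alcohol (limma, adjusted p = 1.29e-05), -1.39 ± 0.17 in FF chow (9.91e-06), -0.81 ± 0.15 in dHEP alcohol (0.000646) and -1.39 ± 0.17 in dHEP chow (5.71e-06). Slc25a20, the carrier in the inner membrane, was lower in all 4 as well, by -0.98, -1.14, -0.65 and -1.15 in that order. Cpt1a, the outer membrane enzyme that controls entry, was called in none, with differences of 0.03 to 0.18 and overlapping values in each comparison.

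Of the 10 genes of the mitochondrial beta-oxidation cycle, 5 were called lower in all 4 comparisons. These were the very long, medium and short chain acyl-CoA dehydrogenases Acadvl, Acadm and Acads, the hydroxyacyl-CoA dehydrogenase Hadh, and Eci1, an isomerase for unsaturated chains. Eci1 stood at 67.7 to 105 CPM in the 14 non-tumor libraries and at 23.1 to 58.5 CPM in the 14 tumors, with no overlap. Its differences were -1.37 ± 0.16 in FF alcohol (limma, adjusted p = 2.74e-06), -1.31 ± 0.18 in FF chow, -0.97 ± 0.16 in dHEP alcohol and -1.40 ± 0.18 in dHEP chow. Acadvl likewise did not overlap between the 14 tumors and 14 non-tumor libraries. Acadm differed by -0.71 ± 0.17 in dHEP alcohol, where its adjusted p was 0.00458.

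The other cycle genes were called in fewer comparisons. The thiolase Acaa2 and the reductase Decr1 were called in FF alcohol, FF chow and dHEP chow. In dHEP alcohol their differences were -0.36 (limma, adjusted p = 0.098) and -0.41 (0.10). Acaa2 was lowest in dHEP chow tumors, at 239, 389 and 404 CPM against 764, 760 and 798 CPM in the matching non-tumor liver, and its difference there was -1.21 ± 0.18 (3.62e-05). Of the trifunctional protein, the alpha chain Hadha was called in both chow comparisons and the beta chain Hadhb in dHEP chow alone. Hadhb in dHEP alcohol averaged 230 CPM in both tissues, a difference of -0.01 (95% interval -0.41 to 0.40). Acadl, the long chain dehydrogenase, was called in FF chow alone (-0.73 ± 0.18, adjusted p = 0.00367). Whether these single calls differ between groups was tested by the interactions given last, and none was called.

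Electron transfer genes went unequal ways. Etfdh, which passes electrons from the flavoprotein to ubiquinone, stood at 254 to 334 CPM in non-tumor liver and 85.7 to 231 CPM in tumors, with no overlap between the 14 and 14 libraries. It was lower by -1.13 ± 0.18, -1.27 ± 0.20, -0.84 ± 0.18 and -1.34 ± 0.20 in FF alcohol, FF chow, dHEP alcohol and dHEP chow (limma, adjusted p = 6.26e-05, 0.000101, 0.00168 and 4.92e-05). Etfa was called lower in the first 3 of these (-0.84, -0.91 and -0.74), and in dHEP chow it differed by -0.63 (adjusted p = 0.070). Etfb, the beta chain, was called in none, with differences of -0.34 to 0.12.

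Of the remaining mitochondrial members, Bdh1, the enzyme that interconverts the ketone bodies acetoacetate and hydroxybutyrate, was higher in FF tumors. Its FF alcohol values were 360, 233, 453 and 244 CPM in tumors and 158.1, 212, 253 and 148 CPM in non-tumor liver, so the groups overlapped. The difference was 0.72 ± 0.23 on alcohol (limma, adjusted p = 0.023) and 0.72 ± 0.26 on chow (0.042), and 0.60 and 0.31 in dHEP mice, not called. Pdk4, a kinase that restrains pyruvate oxidation, and the thioesterase Acot2 were called in none and spread widely, Acot2 from 2.34 to 36.3 CPM over the 14 tumors.

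Of the 9 peroxisomal members, 7 were called lower in all 4 comparisons, and all 9 lay below 0 in each, as did 24.1% of all genes. Acaa1b, a peroxisomal thiolase, is encoded on chromosome 9 (119148023 to 119157093, minus strand, GRCm38), as is its near copy Acaa1a (119339676 to 119350299, plus strand). Acaa1b had the largest log2 fall among the called peroxisomal members in each comparison. In FF alcohol it stood at 1683, 1766, 2453 and 1059 CPM in non-tumor liver and 299, 334, 369 and 329 CPM in tumors. In dHEP chow the non-tumor values were 1134, 829 and 1146 CPM and the tumor values 118, 104 and 136 CPM. Tumors lay below non-tumor liver without overlap within every combination of genotype and diet, though dHEP alcohol tumor dHEP-520, at 915 CPM, lay above 3 of the chow non-tumor libraries. The differences were -2.33 ± 0.29 in FF alcohol (limma, adjusted p = 6.55e-06), -2.33 ± 0.34 in FF chow (3.83e-05), -1.78 ± 0.29 in dHEP alcohol (0.000197) and -3.10 ± 0.34 in dHEP chow (1.24e-06).

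Acaa1a fell less, by -1.12, -1.02, -0.98 and -1.09 in the same order, and its 14 tumors (52.6 to 119 CPM) lay below all 14 non-tumor libraries (125 to 198 CPM). Ehhadh, the bifunctional enzyme of the PPARα-inducible peroxisomal pathway, fell by -1.71 ± 0.25, -1.71 ± 0.29, -1.03 ± 0.25 and -1.79 ± 0.29. Hsd17b4, its counterpart for branched and very long chains, and Decr2, a peroxisomal reductase for unsaturated chains, also did not overlap between the 14 tumors and 14 non-tumor libraries. Hsd17b4 was at 145 to 390 CPM in tumors and 432 to 578 CPM in non-tumor liver. Eci2, an isomerase found in peroxisomes and mitochondria, fell by -1.60 ± 0.25 in dHEP chow, and Pex11a, a membrane protein of dividing peroxisomes, by -1.53 ± 0.32 in dHEP alcohol. The thioesterases Acot3 and Acot4 were called in no comparison, with differences of -1.24 to -2.40 for Acot3 and -0.29 to -1.03 for Acot4. Acot3 ranged from 2.21 to 139 CPM in non-tumor liver, with FF-158 highest.

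**Figure D3:**
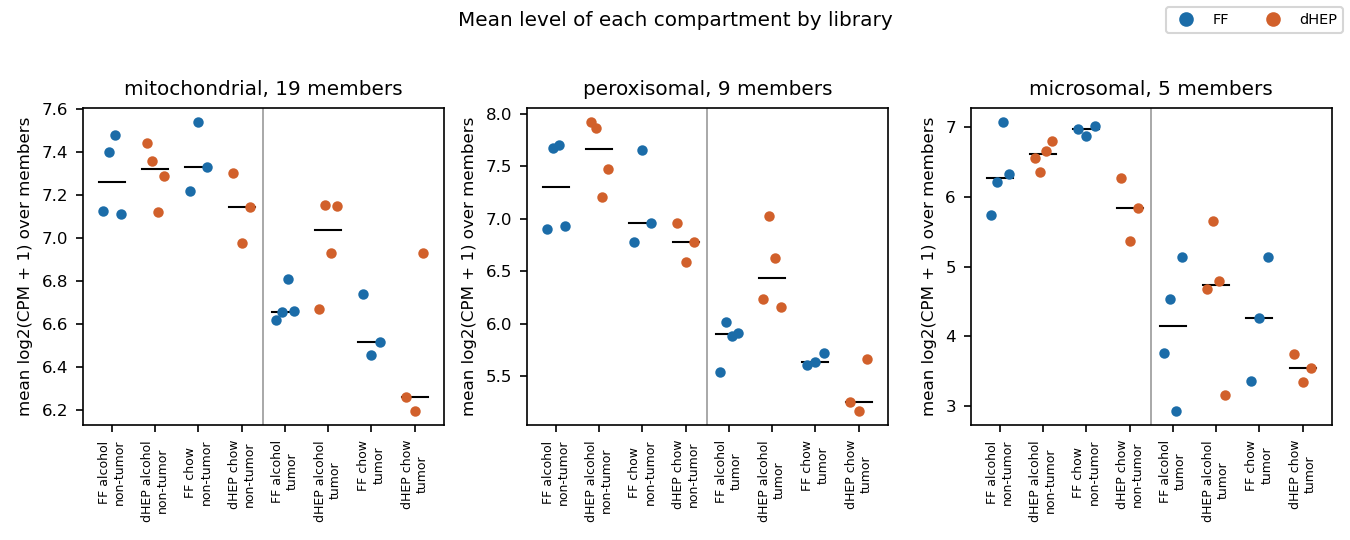
Mean log2(CPM + 1) over the mitochondrial, peroxisomal and microsomal members (y axes, 1 panel each) in each library, by group (x axis), with a line at the group median. Peroxisomal means are lower in tumors than in non-tumor liver of the same genotype and diet, with dHEP chow tumors lowest at 5.17 to 5.66 and dHEP alcohol tumors at 6.16 to 7.03.

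Among the microsomal members, 4 were lower in tumors and Cyp4a31 went the other way. The 5 genes lie together on chromosome 4 (GRCm38), from Cyp4a12a at 115299046 to the end of Cyp4a32 at 115621602. Cyp4a10, a fatty acid omega-hydroxylase and PPARα target, stood at 594, 524, 508 and 476 CPM in dHEP alcohol non-tumor liver and at 37.0, 95.2, 52.1 and 47.1 CPM in the tumors. On chow the dHEP values were 399, 140 and 218 CPM in non-tumor liver and 13.6, 7.03 and 3.16 CPM in tumors. All 14 tumors lay below all 14 non-tumor libraries, FF-158 (1329 CPM) being the highest. Cyp4a10 fell by -3.93 ± 0.66 in FF alcohol (limma, adjusted p = 0.00014), -4.35 ± 0.76 in FF chow (0.00024), -3.25 ± 0.66 in dHEP alcohol (0.00133) and -4.88 ± 0.76 in dHEP chow (6.89e-05).

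Cyp4a14, of whose 50-base stretches 0.235% occurred in other genes, fell by -3.84 ± 0.96, -4.07 ± 1.11, -3.18 ± 0.96 and -4.61 ± 1.11 in FF alcohol, FF chow, dHEP alcohol and dHEP chow. In FF chow it was at 410, 2542 and 360 CPM in non-tumor liver and 5.85, 214 and 52.6 CPM in tumors, with FF-158 and FF-168 highest in their groups. Its lowest value, 0.81 CPM in tumor dHEP-165, rested on 12 reads. Cyp4a32 fell by -1.83, -2.42, -2.30 and -1.96.

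Cyp4a12a, an omega-hydroxylase known to be higher in male mice, was called lower in 3 comparisons. It stood at 174 to 408 CPM in 13 of the 14 non-tumor libraries and at 19.2 CPM in FF-158, and from 1.13 to 122 CPM in tumors. Its differences were -3.79 ± 1.04 in FF alcohol (limma, adjusted p = 0.00955), -3.36 ± 1.20 in FF chow (0.0368) and -3.67 ± 1.04 in dHEP alcohol (0.0147), and -2.82 ± 1.20 in dHEP chow (0.0827). The 11 genes of higher male level summed to 720 to 16413 CPM in non-tumor liver and 605 to 15442 CPM in tumors, and the 13 of higher female level to 62.2 to 3078 and 572 to 9268 CPM. Their part in the Cyp4a12a difference was not tested.

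Cyp4a31 was at 2.66, 3.66, 8.75 and 4.0 CPM in FF alcohol non-tumor liver and at 17.7, 15.4, 47.7 and 22.2 CPM in the tumors. In dHEP mice it was at 1.83 to 8.60 CPM in non-tumor liver and 17.4 to 38.1 CPM in tumors. The FF chow tumors were at 35.6, 3.87 and 26.9 CPM, FF-168 being the low library, against 9.67, 9.11 and 9.34 CPM. Tumors and non-tumor liver overlapped in FF chow alone. Cyp4a31 rose by 2.17 ± 0.46 in FF alcohol (limma, adjusted p = 0.00123), 2.32 ± 0.46 in dHEP alcohol (0.00108) and 2.87 ± 0.53 in dHEP chow (0.000376), and in FF chow the difference was 0.72 ± 0.53 (0.323). It shares 14.7% of its 50-base stretches with Cyp4a32 and 12.2% with Cyp4a10, and both of these moved the other way.

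**Figure D4:**
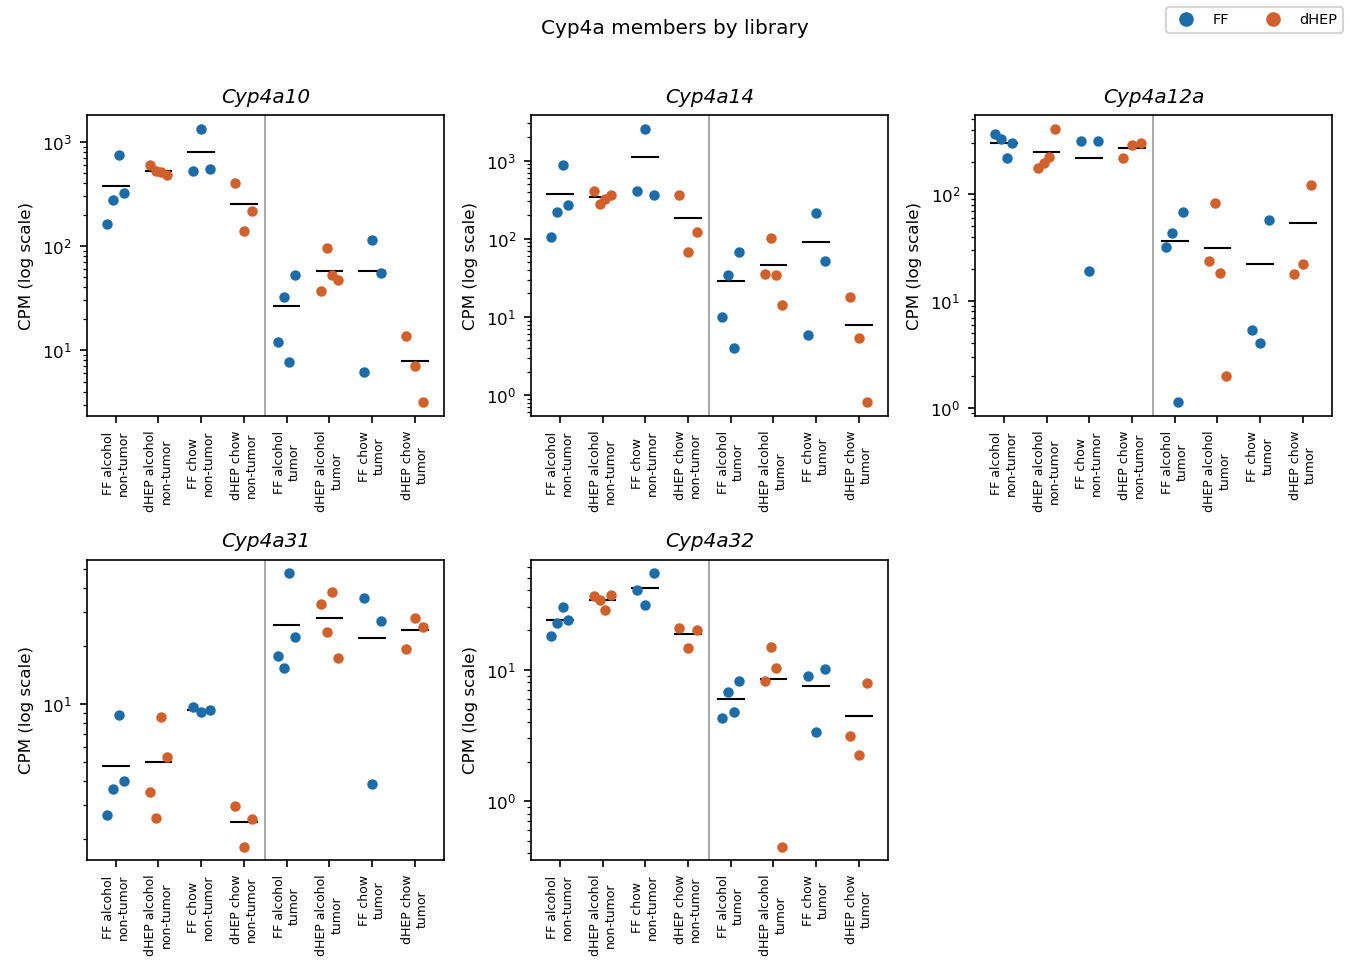
CPM of the 5 Cyp4a members on log axes in each library, by group (x axis), FF in blue and dHEP in orange, with a line at the group mean. Cyp4a10 in tumors lies below every non-tumor library, Cyp4a12a has 1 low non-tumor library (FF-158, 19.2 CPM), and Cyp4a31 is higher in tumors except in FF-168 (3.87 CPM).

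Of the 5 other members, Acot1, the cytosolic thioesterase that releases free fatty acids from acyl-CoA, fell in all 4 comparisons. In dHEP chow it was at 23.9, 19.8 and 20.7 CPM in non-tumor liver and 1.12, 2.39 and 1.02 CPM in tumors, and the groups were far apart. The difference there was -3.20 ± 0.53 (limma, adjusted p = 0.000125), against -2.17 ± 0.46, -2.85 ± 0.53 and -1.83 ± 0.46 in FF alcohol, FF chow and dHEP alcohol. Fgf21, a fasting hormone made by the liver, was called higher in dHEP chow alone in the limma fit of all 28 libraries (95% interval of the log2 difference 0.70 to 4.29, adjusted p = 0.035). Its tumors stood at 16.6, 0.525 and 24.2 CPM and its non-tumor liver at 0.75, 0.296 and 0.659 CPM, so dHEP-164 overlapped, and over the 6 fits that each left out 1 library of these groups the adjusted p ran from 0.0016 to 0.17. In the fit of all 28 libraries Ppara itself was called in none, with differences of -0.44 to -0.65. Nor were its coactivator Ppargc1a and Vnn1, a pantetheinase that frees pantothenate, a precursor of coenzyme A. The fits of the compared groups only, which called Ppara, Ppargc1a and Fgf21 in some comparisons, are given below.

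Other genes of the pathway, from a list of 89 of which 85 were tested, were also mostly lower in tumors. Called lower were 51 in FF alcohol (10.6% of all genes), 52 in FF chow (9.55%), 42 in dHEP alcohol (7.54%) and 50 in dHEP chow (10.7%), and higher 6, 6, 6 and 5 (13.9%, 21.2%, 12.9% and 17.2%). Their median differences were -0.77, -0.79, -0.53 and -0.81. Among those of smallest p were Pecr, a peroxisomal reductase (-1.88 in FF alcohol), Acsl1, an acyl-CoA synthetase (-1.60 in FF chow), and Scp2, a peroxisomal thiolase and lipid carrier (-2.06 in dHEP chow). Acsl4, a synthetase for arachidonic acid, was higher (2.14 in dHEP alcohol).

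The pairing of tumor and non-tumor liver was added with the animal as a block, in a fit that also held only the compared groups, and both changes bear on its calls. In dHEP alcohol 5 mitochondrial calls were lost in it (limma, adjusted p = 0.055 for Acadvl, 0.073 for Acads, 0.15 for Etfa, 0.073 for Hadh and 0.051 for Slc25a20). The first 3 of these were also lost in the compared groups without the block (0.053, 0.072 and 0.11), and Hadh and Slc25a20 were not (0.039 and 0.037). In dHEP chow Acadm, Hadh, Hadha and Hadhb were lost with the block (0.094, 0.085, 0.11 and 0.19) and without it (0.14, 0.16, 0.13 and 0.23), and Acads with it alone (0.055, against 0.047). Gained in FF alcohol with and without the block were Hadha (0.014 and 0.016), Ppara (0.0021 and 0.0072) and Fgf21 (0.00075 and 0.027). Acot3 (0.0051), Acot4 (0.017) and Ppargc1a (0.017) were gained there with the block alone, as was Fgf21 in dHEP alcohol (0.04999). In dHEP chow Ppargc1a (0.038 and 0.046) and Cyp4a12a (0.0062 and 0.030) were gained in both fits. Cpt2, Eci1, Etfdh and all 7 peroxisomal members kept their calls with the block.

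Without FF-158 and FF-168, 26 members were called in FF chow, 24 lower (6.45% of all 13415 genes then tested) and 2 higher (17.0%); Cyp4a31 was then called and Hadha was not. Cyp4a12a in FF chow ranged over adjusted p of 0.0068 to 0.16 as single libraries were left out. Scaling by median of ratios moved the median of all genes by more than 0.1 in FF chow (0.16 to 0.01) and dHEP chow (0.14 to 0.02). It changed the split of all calls from 2864 higher and 1289 lower to 2379 and 2089 in FF chow, from 1736 and 1018 to 1606 and 1639 in dHEP alcohol, and from 2328 and 1441 to 1982 and 2052 in dHEP chow.

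The alcohol diet was compared with chow within each genotype and tissue. The mice on alcohol all carry higher animal numbers than those on chow, so diet and cohort cannot be told apart. The 5 fat cell genes measured summed to 24.4 to 114 CPM in alcohol and 5.27 to 15.7 CPM in chow non-tumor liver. The defining genes Adipoq, Lep and Plin1 were below 1 CPM in all of these libraries, and the part of fat cells in the diet results was not tested. In non-tumor liver a few peroxisomal and PPARα target members were called higher on alcohol, and no member was called lower. In FF mice 1 member was called higher (0.253% of all 12651 genes; 0.324% were lower), and in dHEP mice 3 (0.19%; 0.466% were lower). The FF median differences were 0.19 for peroxisomal, -0.03 for mitochondrial and -0.95 for microsomal members, and the dHEP medians 0.66, 0.17 and 0.84. The FF peroxisomal median was -0.01 without FF-523 and FF-581.

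Vnn1 was called in both genotypes. The FF alcohol libraries stood at 95.7, 144, 188 and 123 CPM and the FF chow libraries at 55.8, 69.2 and 62.7 CPM. In dHEP it was at 118, 141, 134 and 186 CPM (alcohol) against 78.2, 49.6 and 63.5 CPM (chow). All 8 alcohol libraries lay above all 6 chow libraries. The difference was 1.09 ± 0.21 in FF (limma, adjusted p = 0.041) and 1.18 ± 0.21 in dHEP (0.028).

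The other calls were peroxisomal and came from dHEP mice. Pex11a stood at 101, 104, 82.7 and 106 CPM with alcohol against 45.7, 50.5 and 46.9 CPM with chow, and Eci2 at 251, 264, 251 and 300 CPM against 163, 181 and 184 CPM. Neither overlapped. The differences were 1.02 ± 0.19 for Pex11a (limma, adjusted p = 0.033) and 0.59 ± 0.12 for Eci2 (0.047). In FF mice Pex11a differed by 0.34 (adjusted p = 0.46) and Eci2 by -0.15 (0.64), both with overlap.

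These calls were near the threshold. Leaving out any 1 of the 7 dHEP libraries ended all 3 dHEP calls (adjusted p of 0.053 to 0.11 for Vnn1, 0.054 to 0.16 for Pex11a and 0.075 to 0.24 for Eci2). In FF mice Vnn1 was called in 2 of 7 such fits (0.013 to 0.13).

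Averaged over the genotypes, a comparison added after the results had been seen, 3 members were higher on alcohol in non-tumor liver (1.19% of all genes; 2.47% were lower). They were Vnn1 (1.13 ± 0.15, limma, adjusted p = 0.0019), Acaa1b (0.89 ± 0.17, 0.012) and Pex11a (0.68 ± 0.13, 0.014), each called in all 20 alternatives tried. Hsd17b4 was just outside, at 0.25 ± 0.07 (adjusted p = 0.0501), with all alcohol libraries at 502.8 to 578 CPM, above the chow libraries at 432 to 492 CPM. Median-of-ratios scaling changed the split of all calls from 151 higher and 312 lower to 281 and 301, and in dHEP mice alone from 24 and 59 to 40 and 38. Of the other pathway genes Plin4, a lipid droplet coat protein, was higher in FF (161 ± 62.0 against 55.2 ± 24.5 CPM) and dHEP (186 ± 23.7 against 53.8 ± 12.6 CPM), and Fabp2, a fatty acid binding protein, in FF (1.20). Cyp4f14, a microsomal hydroxylase, was lower in FF (-1.08).

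In tumors no member was called for diet. The dHEP tumors had the higher values on alcohol, with 36 of 38 members above 0, against 35.7% of all 13205 genes. Of the members 23 (60.5%) had an unadjusted p under 0.05 by limma, all above 0, against 10.9% of all genes. Over all genes 0.00757% were called higher there and 0% lower. The all-gene median was -0.11, which median-of-ratios scaling moved to -0.01. The medians were 0.96 for peroxisomal, 0.55 for mitochondrial and 0.50 for microsomal members. In FF tumors 2 members passed the unadjusted p (5.44% of all genes), 0 were called (0% of all genes), and the medians were 0.16, 0.08 and -0.20 (0.046, 0.050 and -0.0031 without FF-168). Whether the diet differences of FF and dHEP tumors are unequal was tested by the interaction below.

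The tumor values of smallest p were those of Acaa1b, Ehhadh, Acot1 and Eci2 in dHEP mice. Acaa1b was at 386, 915, 675 and 246 CPM with alcohol against 118, 104 and 136 CPM with chow. It did not overlap between diets in either genotype, with FF tumors at 299, 334, 369 and 329 against 128, 145 and 215 CPM. The difference was 2.04 ± 0.35 in dHEP (limma, adjusted p = 0.11) and 1.06 ± 0.35 in FF (0.84). Without tumor dHEP-550 the dHEP value reached an adjusted p of 0.020. Ehhadh differed by 1.42 ± 0.28 (0.13), Acot1 by 2.63 ± 0.53 (0.13; 16.1 ± 10.7 against 1.51 ± 0.77 CPM) and Eci2 by 1.29 ± 0.29 (0.16).

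In FF tumors the smallest p after that of Pdk4 (-0.88 ± 0.28, limma, adjusted p = 0.84) was that of Acaa1b, followed by Ppargc1a (-1.16, and -0.49 without FF-168) and Acot2 (1.15). Averaged over genotypes, 0 members were called in tumors (0% of all genes), and 16 passed an unadjusted p of 0.05, all above 0 (11.5% of all genes). Acaa1b had the smallest p, at 1.55 ± 0.25 (adjusted p = 0.062), then Ehhadh (0.80), Acot1 (1.44) and Decr1 (0.63).

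**Figure D5:**
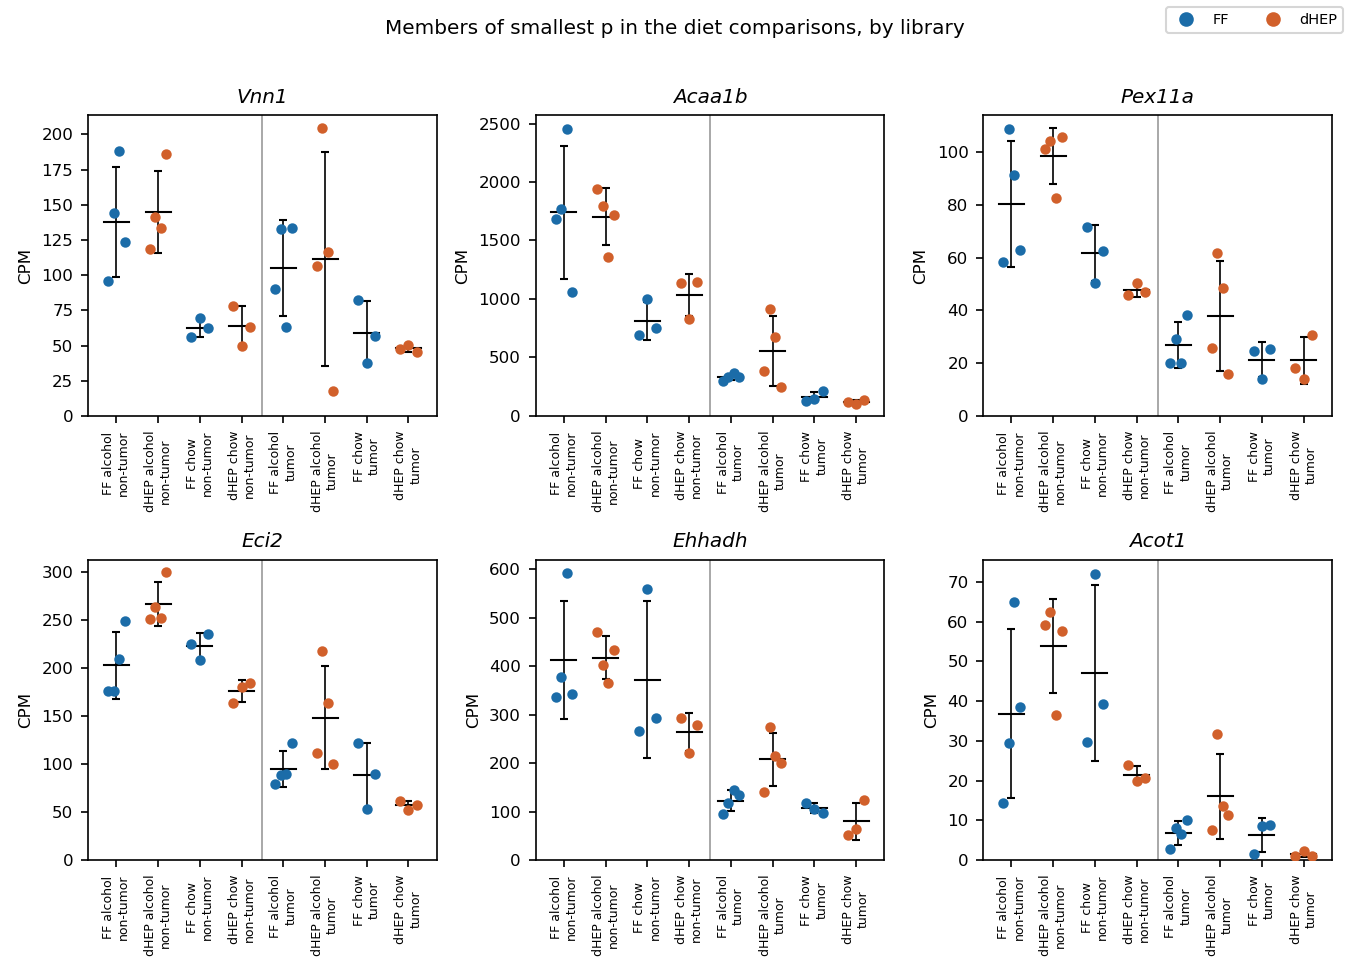
CPM of Vnn1, Acaa1b, Pex11a, Eci2, Ehhadh and Acot1 in each library, by group (x axis), FF in blue and dHEP in orange, with mean and SD. Vnn1 in non-tumor liver is at 95.7 to 188 CPM in the 8 alcohol libraries and 49.6 to 78.2 CPM in the 6 chow libraries; Acaa1b in tumors is at 246 to 915 and 104 to 215 CPM.

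Between dHEP and FF mice no member was called in any of the 4 groups compared, nor any other gene (0% of all genes in each of the 4). Il17ra itself was thus not called, with differences of -1.0 ± 0.19 in alcohol non-tumor liver (limma, adjusted p = 0.29), -0.92 ± 0.22 in chow non-tumor liver (0.72), -0.94 ± 0.33 in alcohol tumors (0.73) and -0.53 ± 0.38 in chow tumors (adjusted p = 1.0), and its values in dHEP and FF tumors overlapped. The members lay mostly above 0 on alcohol and below 0 on chow. Above 0 (higher in dHEP) were 33 of 38 in alcohol non-tumor liver and 34 in alcohol tumors, and 7 in chow non-tumor liver and 9 in chow tumors, against 37.3%, 47.1%, 56.0% and 47.9% of all genes in that order. At an unadjusted p under 0.05 by limma were 2, 8, 9 and 4 members in that order, against 8.51%, 6.31%, 4.65% and 2.86% of all genes. In alcohol tumors the 8 members were all above 0, and in both chow comparisons the 9 and 4 members were all below 0.

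In alcohol non-tumor liver Eci2 had the smallest p, at 251, 264, 251 and 300 CPM in dHEP and 176, 176, 209 and 249 CPM in FF, with no overlap (0.40 ± 0.11, limma, adjusted p = 0.37). Cyp4a32 (0.51), Ppargc1a (0.54) and Decr2 (0.22) followed. In alcohol tumors it was Acot4, at 19.7, 25.6, 26.1 and 29.7 CPM in dHEP and 8.92, 15.3, 14.2 and 11.3 CPM in FF. Every dHEP tumor lay above every FF tumor (0.98 ± 0.21, adjusted p = 0.65). Acot3 (2.06), Ehhadh (0.73) and Ppargc1a (1.67) followed, Ppargc1a with 78.5 CPM in dHEP-550 against 7.70, 10.5 and 19.9 CPM in the other dHEP tumors.

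On chow Cyp4a32 had the smallest p in non-tumor liver, at 20.8, 14.5 and 20.1 CPM in dHEP and 40.6, 30.9 and 53.9 CPM in FF. The groups did not overlap (-1.12 ± 0.21, limma, adjusted p = 0.72; 0.044 with sample quality weights). Cyp4a31 (-1.60), Acadl (-0.55) and Cyp4a10 (-1.66) followed. In chow tumors the smallest p values were those of Pdk4 (-0.97 ± 0.30, adjusted p = 1.0), Cyp4a10 (-2.19), Acot1 (-1.35) and Cyp4a14 (-2.84). The FF values of Cyp4a10 and Cyp4a14 were highest in FF-158 and FF-168, and without FF-158 the peroxisomal median in chow non-tumor liver moved from -0.34 to -0.09. Without FF-168 the chow tumor differences were -1.35 for Cyp4a10 and -1.67 for Cyp4a14.

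Averaged over the diets, also added after the results had been seen, no member was called in either tissue (0% and 0% of all genes). In non-tumor liver 3 members passed an unadjusted p of 0.05 by limma (5.28% of all genes), led by Cyp4a31 (-0.77 ± 0.24, adjusted p = 0.77). In tumors 1 did (3.05%), Pdk4 (-0.43 ± 0.20, adjusted p = 1.0).

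The interactions asked whether a difference itself varied with another factor, and no member and no gene was called in any of the 6. For genotype by diet, 11 members passed an unadjusted p of 0.05 by limma in non-tumor liver (6.88% of all genes; 0% called) and 11 in tumors (4.95%; 0% called), and in all of these the genotype difference was more positive on alcohol. Cyp4a32 in non-tumor liver came closest, at 1.63 ± 0.28 (adjusted p = 0.21), with alcohol and chow differences of opposite sign, then Eci2 (0.75), Acadl (0.71) and Cyp4a10 (2.36). In tumors Acot4 (95% interval 0.60 to 2.00, adjusted p = 0.65), Ehhadh (1.24), Acot1 (2.37) and Cyp4a10 (3.56) had the smallest p.

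For genotype by tissue, 0 members passed the unadjusted p by limma on alcohol (1.97% of all genes; 0% called), where Ehhadh had the smallest p (0.68 ± 0.36). On chow 1 did (3.12%; 0% called), Cyp4a31 at 2.15 ± 0.75, and at 1.26 without FF-158 and FF-168. For diet by tissue, 1 member passed in FF (5.93%; 0% called), Cyp4a31 at 1.46 ± 0.70 (0.57 without the same libraries), and 7 in dHEP (6.42%; 0% called), all above 0. The smallest p in dHEP mice were those of Acaa2 (0.85 ± 0.23, adjusted p = 0.51), Acaa1b (1.32 ± 0.44), Cpt2 (0.58) and Decr1 (0.68).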

How the data were processed

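RNA from 28 liver libraries was compared by genotype, diet and tissue, with groups and animal numbers taken from the sample titles. The deposited values are gene-level CPM for 22187 genes, made by the authors on the GRCm38 build with RSEM 1.3.0 and STAR 2.5.1a, per the submitters' processing notes. Each column sums to 1000000. The labels call the molecule polyA RNA but cite a kit for stranded total RNA, so which fraction was read is not settled. Depth, taken from the step that 1 read makes among low values, was 9.57 to 17.82 M reads. Of values up to 20 reads, 84.9% to 86.8% were whole to within 0.1 read in a library, too few for a count model. Symbols came from the GENCODE annotation for 21653 IDs.

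Tests used limma 3.58.1 in R 4.3.3 (moderated variances with a trend) on log2(CPM + 1). Genes needed at least 1 CPM in 3 or more of the fitted libraries, with Benjamini-Hochberg adjustment over all genes. The fits held 12651 genes in non-tumor liver, 13205 in tumors and 13503 over all 28 libraries. The main fit was run on simulated data for genotype in alcohol non-tumor liver, diet in dHEP tumors and tissue in FF chow. The other comparisons and the alternative fits were not simulated. A fold change on the log2(CPM + 1) scale understates that of low genes. The members and lists were chosen with earlier results of these data known.

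Named were called members, up to the 4 of smallest p in each compartment, or where none was called the 4 of smallest p over all members, and promoters of members with a DR1 match. Hsd17b4 on diet, members named outside this rule and the libraries singled out were chosen after their values were seen. Tumor and non-tumor samples share numbers in FF alcohol (deviations correlated at 0.16 to 0.36, all 4 pairs above 0.1, so taken as paired), dHEP alcohol (-0.11 to 0.25, 2 of 4) and dHEP chow (0.07 to 0.19, 2 of 3); in FF chow the numbers differ. Same-numbered samples were taken to be of the same animal, and the animal as a block was an alternative. The main tissue values, also those of FF alcohol, came from the fit without it. Alternatives were median-of-ratios scaling, log2(CPM + 0.5), a filter on the mean (5 CPM), no filter at all, a fit restricted to the groups compared, sample quality weights, the replicate block, leaving out each library in turn and leaving out libraries in doubt. Protein sequences were not used here.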

Additional observations from a re-analysis of the deposited data

Results flagged for a closer look

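In groups of 4, the highest or lowest library of a member was set against the spread of the other 3 by Dixon's criterion. Of 152 such tests 7 passed, and chance passes about 1 in 20. In FF alcohol non-tumor liver, Ehhadh was high in FF-581 at 592.2 CPM (335.8 to 376.9 in the others), and Hadhb was low in FF-503 at 173.1 CPM (232 to 243.8). In FF alcohol tumors, Slc25a20 was low in FF-503 at 50.96 CPM (64.01 to 64.8). In dHEP alcohol non-tumor liver, Decr1 was low in dHEP-549 at 184.9 CPM (205.5 to 207.7), and Etfa was high in dHEP-518 at 174.9 CPM (131.3 to 135.2). In dHEP alcohol tumors, Hadh was low in dHEP-518 at 160.6 CPM (201.6 to 208.2), and Fgf21 was high in dHEP-520 at 41.19 CPM (3.476 to 6.584).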

How the results depend on the processing

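No called member changed direction under any alternative run. Members not called and near 0 did, such as Hadhb in dHEP alcohol tissue (-0.01, to 0.06 without tumor dHEP-518) and Cpt1a in dHEP chow tissue (0.03, to -0.25 without tumor dHEP-165), and so did several compartment medians near 0. In the genotype comparisons the microsomal median in alcohol non-tumor liver went from 0.32 to -0.05 with sample quality weights and -0.13 without FF-503, and the mitochondrial median in chow tumors from -0.09 to 0.01 without dHEP-164. In the diet comparisons the FF peroxisomal median in non-tumor liver went from 0.19 to -0.01 without FF-523 and FF-581, and the FF microsomal median in tumors from -0.20 to 0.05 without FF-169. The tissue counts stayed within 1.5 times their value, at 23 to 26 members called in FF alcohol, 23 to 27 in FF chow, 19 to 24 in dHEP alcohol and 19 to 26 in dHEP chow as single libraries were left out. The diet counts did not. In FF non-tumor liver (1 member called, 0.577% of all genes) 0 were called with no filter (0.172%), 0 in a fit of the compared groups only (0.0081%), 2 with median-of-ratios scaling (1.18%), 3 with sample quality weights (3.18%), 0 without FF-523 and FF-581 (0.0719%), 0 without dHEP-155 and FF-158, and 0 to 2 as single libraries were left out. In dHEP non-tumor liver (3 called, 0.656% of all genes) 6 were called in a fit of the compared groups only (1.61%), 10 with sample quality weights (4.49%), 0 without dHEP-155 and FF-158 (0.0478%), and 0 as each single library was left out. In dHEP tumors (0 called) single libraries gave 0 to 1. Averaged over genotypes, sample quality weights gave 6 members in non-tumor liver (7.96% of all genes; 3 called) and 1 in tumors (0 called), where single libraries gave 0 to 1. In the chow non-tumor genotype comparison (0 called) sample quality weights gave 1. The cause of these changes was not tested. Counts without a share beside them are not set against all genes and are not read as particular to the members. Depth limits the lowest members, as 1 read was worth 0.056 to 0.104 CPM.

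With the replicate block, fitted in the compared groups only, members called for tissue went from 25 to 31 in FF alcohol, from 22 to 18 in dHEP alcohol and from 25 to 21 in dHEP chow. Over all genes they went from 3315 to 4476, from 2754 to 1601 and from 3769 to 2149. Every sample correlated best with its own number in FF alcohol and dHEP chow. Fgf21 was too low to be tested with the block in dHEP chow. The block called no member in either interaction it could be fitted to.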
